A study of Mus musculus with 16 samples.

Results

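The R6/2 transgene was compared in mice that all lacked 1 copy of DREAM: 4 arrays of striatum from R6/2 x DREAM+/- mice were set against 4 arrays from DREAM+/- mice, 8 of the 16 arrays of the series. Both groups were of B6xCBA strain. The R6/2 transgene holds exon 1 of the human huntingtin gene, with its CAG repeat expanded and under the human huntingtin promoter, and R6/2 mice are a fast-progressing model of Huntington's disease. The heterozygous DREAM background came from a cross with DREAM knockout mice, whose deletion is in the germ line, so the controls carry it as well. The other 8 arrays, 4 from R6/2 and 4 from wild-type mice, entered the same fit and gave the R6/2 effect on the wild-type background. The sources used here give no age or sex and do not say whether animals were pooled, and the labels call the 4 arrays of each genotype biological replicates. RNA was taken from whole striatum, although the cell type label reads striatal neurons, so that fewer cells of a type and less RNA per cell cannot be told apart in any value below. Each sample was hybridised to an Affymetrix GeneChip array for the mouse genome, which reads a gene by 1 or more sets of short probes, and the deposited values are log2 intensities, on which a difference of 1 is a 2-fold change.

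The striatum is built mainly of medium spiny neurons, GABA-releasing projection cells that receive dopamine and glutamate. Those of the direct pathway express the D1 dopamine receptor and dynorphin, and those of the indirect pathway the D2 receptor and enkephalin. Mutant huntingtin lowers many transcripts that these neurons express at high level, and the fall of these transcripts is a hallmark of Huntington's disease models. DREAM, the product of Kcnip3, is a calcium sensor that represses transcription when it is free of calcium, binds Kv4 potassium channels and was also described as a partner of presenilins.

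Kcnip3, the gene of DREAM, was read by 2 probe sets. On the brighter of these the R6/2 x DREAM+/- arrays read 7.67, 7.43, 7.65 and 7.49 and the DREAM+/- arrays 7.82, 7.77, 7.72 and 7.78. The R6/2 arrays read 9.04 to 9.23 and the wild-type arrays 9.41 to 9.89, so that all 8 arrays of DREAM+/- mice lay below all 8 others. The mean of the DREAM+/- arrays was 26.9% of the wild-type mean. On the dimmer probe set the DREAM+/- arrays read 5.40 to 5.85 and the wild-type arrays 8.22 to 8.83. No percentage is given for it, because these DREAM+/- values lay below 5.944, the brightness minimum set for testing a gene. The sources used here do not say which part of the gene was deleted, and levels from probe sets beyond the deletion do not test the genotype. Between the 2 DREAM+/- groups the log2 difference with R6/2 was -0.21 ± 0.092 (SE), and it did not pass the test (adjusted p = 0.138).

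The tissue carried its defining transcripts: Ppp1r1b, which encodes DARPP-32, the phosphoprotein through which dopamine and cAMP act in medium spiny neurons, lay at the 99.1th percentile of all probe sets, Penk at the 99.5th and Drd1 at the 96.9th. Cortical projection neuron markers had mean levels of 8.57 to 8.90 in the R6/2 x DREAM+/- arrays and 8.76 to 8.94 in the DREAM+/- arrays. Choroid plexus, which borders the striatum in the ventricle, was read unevenly within both groups: the mean of its 10 tested markers ran from 8.09 to 9.30 and from 7.47 to 9.29, and Ttr, its transthyretin transcript, from 14.15 to 14.52 and from 13.86 to 14.38. None of these 10 markers passed the test, with a median difference of 0.23. The third R6/2 x DREAM+/- array stood apart on the second principal component of the 8 arrays (20.8% of their variance), at -18.5 against 3.66 to 4.93 for the others of its group. The first component (45.4%) separated the genotypes, with -14.3 to -4.98 for R6/2 x DREAM+/- and 7.24 to 12.4 for DREAM+/-. Genes of the sex chromosomes also moved with the groups. Xist, the RNA of the inactive X chromosome, read 11.63 to 12.16 with R6/2 and 11.04 to 11.49 without it, and the Y-linked Eif2s3y 6.23 to 7.42 and 7.51 to 8.05, the lowest value on the third array. Neither passed the test (adjusted p = 0.665 and 0.283), but groups did not overlap for either gene. Among the other 8 arrays, which share the estimate of spread, Xist read 6.49 to 11.95 in R6/2 and 11.47 to 11.84 in wild type, the lowest on the first R6/2 array. That array read 8.91 for Eif2s3y, whereas the DREAM+/- arrays had high Xist beside Eif2s3y of 7.51 to 8.05. Whether an array holds RNA of both sexes was not tested. Eif2s3x, the X-linked partner of Eif2s3y, rose by 0.30 (adjusted p = 0.00814). The part of a differing mix of sexes in the results was tested only as far as a covariate allows: with the mean of the Y-linked Eif2s3y and Kdm5d in the fit, 505 genes were higher in place of 920 and 928 lower in place of 1024. That covariate ended 610 of 1944 calls. It ended 42 calls of genes named in the text, more than any other alternative, among them those of Arc, Pde10a, Kcnd2, Dusp6 and Syp.

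R6/2 changed the level of 1944 of 13011 genes on the DREAM+/- background at a Benjamini-Hochberg adjusted p under 0.05 in limma, 14.9% of those tested. Of these, 1024 fell (7.87%) and 920 rose (7.07%), and in 1645 the 4 R6/2 x DREAM+/- arrays did not overlap the 4 DREAM+/- arrays. Over all 13011 genes, called or not, the arrays did not overlap in 1354 that were higher and 1101 that were lower. Large changes were almost all falls. At least 2-fold changes numbered 19 lower and 1 higher, and at least 1.5-fold changes 142 lower and 22 higher. The median size of a called difference was 0.29 on the log2 scale, and the median difference over all genes was 0.0225. Over all 13011 genes 5582 differences were below 0, against which the signs within a list are to be read. Without the third R6/2 x DREAM+/- array 877 genes rose and 1429 fell.

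**Figure D1:**
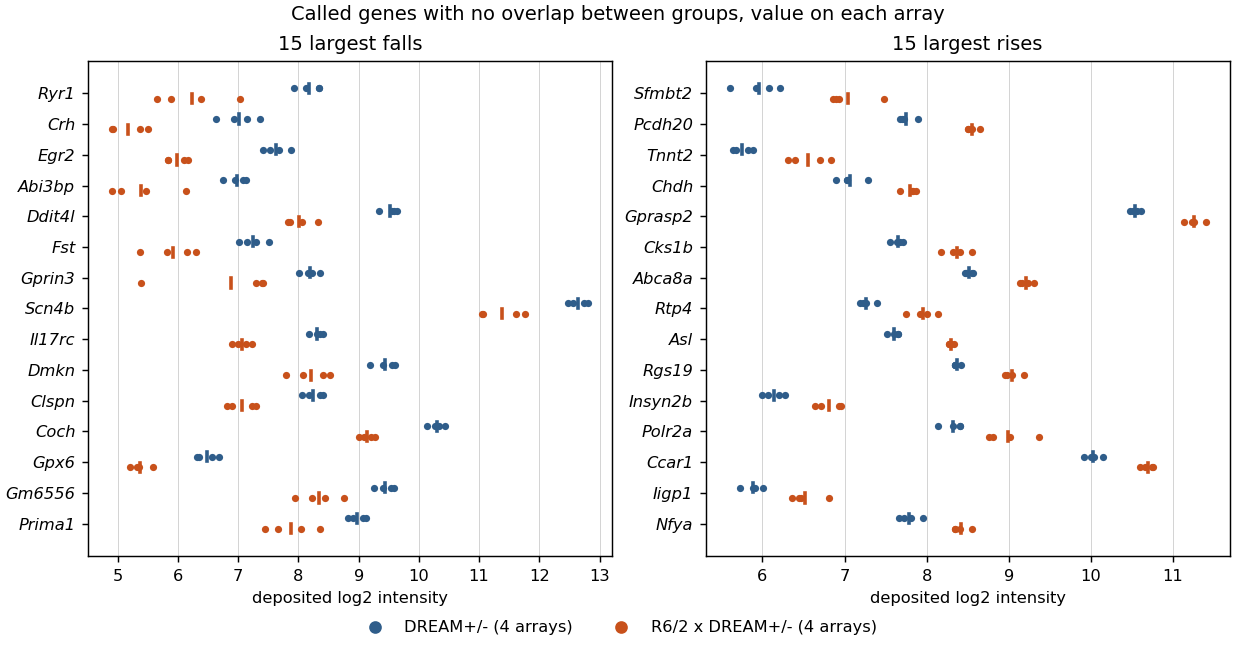
Deposited log2 intensity (horizontal axis) on each of the 8 arrays for the 15 largest falls and the 15 largest rises among called genes whose groups did not overlap; points are arrays, short vertical lines are group means, blue is DREAM+/- and orange R6/2 x DREAM+/-. Falls reached -1.95 (Ryr1), whereas Sfmbt2, at 1.09, was the 1 rise beyond 2-fold.

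The largest fall was in Ryr1, a ryanodine receptor that releases calcium from the endoplasmic reticulum. It read 5.65, 6.38, 7.03 and 5.88 on the R6/2 x DREAM+/- arrays and 8.13, 8.34, 8.34 and 7.92 on the DREAM+/- arrays. The highest array with R6/2, the third, still lay below the lowest control array. Its mean level was 25.9% of the DREAM+/- level, a log2 difference of -1.95 ± 0.20 (SE; adjusted p = 7.14e-06). The Ryr1 readings of 5.65 and 5.88 lay below the brightness minimum of 5.944, so the percentage rests in part on dim values. Crh, corticotropin-releasing hormone, read 4.9, 4.92, 5.37 and 5.5 with R6/2 and 7.36, 6.93, 7.14 and 6.63 without it. Its difference of -1.84 ± 0.20 is given without a percentage, because all 4 R6/2 arrays lay below the brightness minimum of 5.944 that the mean of a gene over all 16 arrays had to pass. Abi3bp, which encodes a protein of the extracellular matrix, fell by 1.59 with a wide spread among the R6/2 arrays (4.9 to 6.13 against 6.75 to 7.12). Ddit4l, a stress-induced inhibitor of mTOR signalling, was much more even: 7.82, 7.86, 8.32 and 8.05 against 9.64, 9.56, 9.58 and 9.33, a difference of -1.51 ± 0.12. Fst, which encodes the activin antagonist follistatin, differed by -1.33, and Scn4b, the sodium channel subunit that supports resurgent current, by -1.27. Gprin3, a G protein-regulated inducer of neurite outgrowth, differed by -1.31 (adjusted p = 0.00986), of which much came from 1 array. It read 7.4, 7.41, 5.39 and 7.29 with R6/2 against 8.01, 8.35, 8.16 and 8.22 without it. Without the third R6/2 x DREAM+/- array its difference was -0.82 (adjusted p = 0.000925), and in the mean of its 2 probe sets -0.78 (adjusted p = 0.0755).

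The other falls among the 15 largest were in Egr2 (-1.64), described below with the activity-induced genes, Il17rc (-1.25), Dmkn (-1.24), Clspn (-1.19), Coch (-1.15), Gpx6 (-1.11), Gm6556 (-1.11) and Prima1 (-1.10). Il17rc encodes a subunit of the interleukin-17 receptor, Clspn claspin of the replication checkpoint, Coch the matrix protein cochlin, Gpx6 a glutathione peroxidase and Prima1 the membrane anchor of acetylcholinesterase. Coch had the tightest groups of these, 9.09, 9.27, 9.2 and 9.01 against 10.27, 10.43, 10.34 and 10.14. Gpx6 lay below the brightness minimum on all 4 R6/2 arrays. For Il17rc the fall was seen on the brighter of its 2 probe sets and not on the other.

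Sfmbt2, a polycomb group gene, had the largest rise. It read 6.86, 6.93, 7.48 and 6.9 with R6/2 and 5.6, 6.08, 5.92 and 6.21 without it, a level of 213% of the DREAM+/- mean and a difference of 1.09 ± 0.14 (adjusted p = 5.1e-05). The third R6/2 x DREAM+/- array was the highest. Pcdh20, a protocadherin, read 8.51, 8.65, 8.51 and 8.55 against 7.72, 7.7, 7.68 and 7.89 and rose by 0.81. Tnnt2, the cardiac troponin T gene, rose by 0.80, and Chdh, the choline dehydrogenase of mitochondria, by 0.74. Asl, the argininosuccinate lyase of the urea cycle, gave the most even rise: 8.33, 8.3, 8.27 and 8.27 against 7.65, 7.6, 7.52 and 7.65. Rgs19, unlike the other regulators of G protein signalling described below, rose, by 0.68. Rises of similar size were measured in Gprasp2 (0.72), which sorts G protein-coupled receptors, Cks1b (0.72), a cyclin-dependent kinase subunit, the transporter gene Abca8a (0.69), Insyn2b (0.67), Polr2a (0.67), the largest subunit of RNA polymerase II, Ccar1 (0.67), Iigp1 (0.64), an interferon-inducible GTPase, and Nfya (0.63), a subunit of the CCAAT-binding factor. For Ccar1, 2 of 3 probe sets moved in this direction.

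The tested genes were grouped by role in 48 lists, and the falls were spread unevenly over them. Falls made up 6 of 7 indirect pathway genes, 41 of 49 medium spiny neuron genes and 13 of 17 interneuron genes, but 0 of 29 ribosomal protein genes. A list is described by its counts, to be read against the 14.9% of all genes that were called, with no test of the list as such. The lists were chosen with earlier results of these data known, so a large share called is a description and no independent result. The brightest probe set stood for each gene. Of the 181 called genes described here that could be set against the mean of all probe sets of a gene, 31 did not keep their call in that mean. These are marked where they are described, except Bdnf, Cetn4, Dnajb1, Edem1, Eif2s3x, Ets1, Hspa8, Oprl1, Pgk1, Psma3 and Tfrc. Another 24 kept it with a difference smaller by more than 1.5 times, among them Ryr1 (-1.19), Adcy5 (-0.29), Arpp21 (-0.34), Clspn (-0.63), Il17rc (-0.60), Gabrd (-0.46), Rtp4 (0.32) and Polr2a (0.34).

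**Figure D2:**
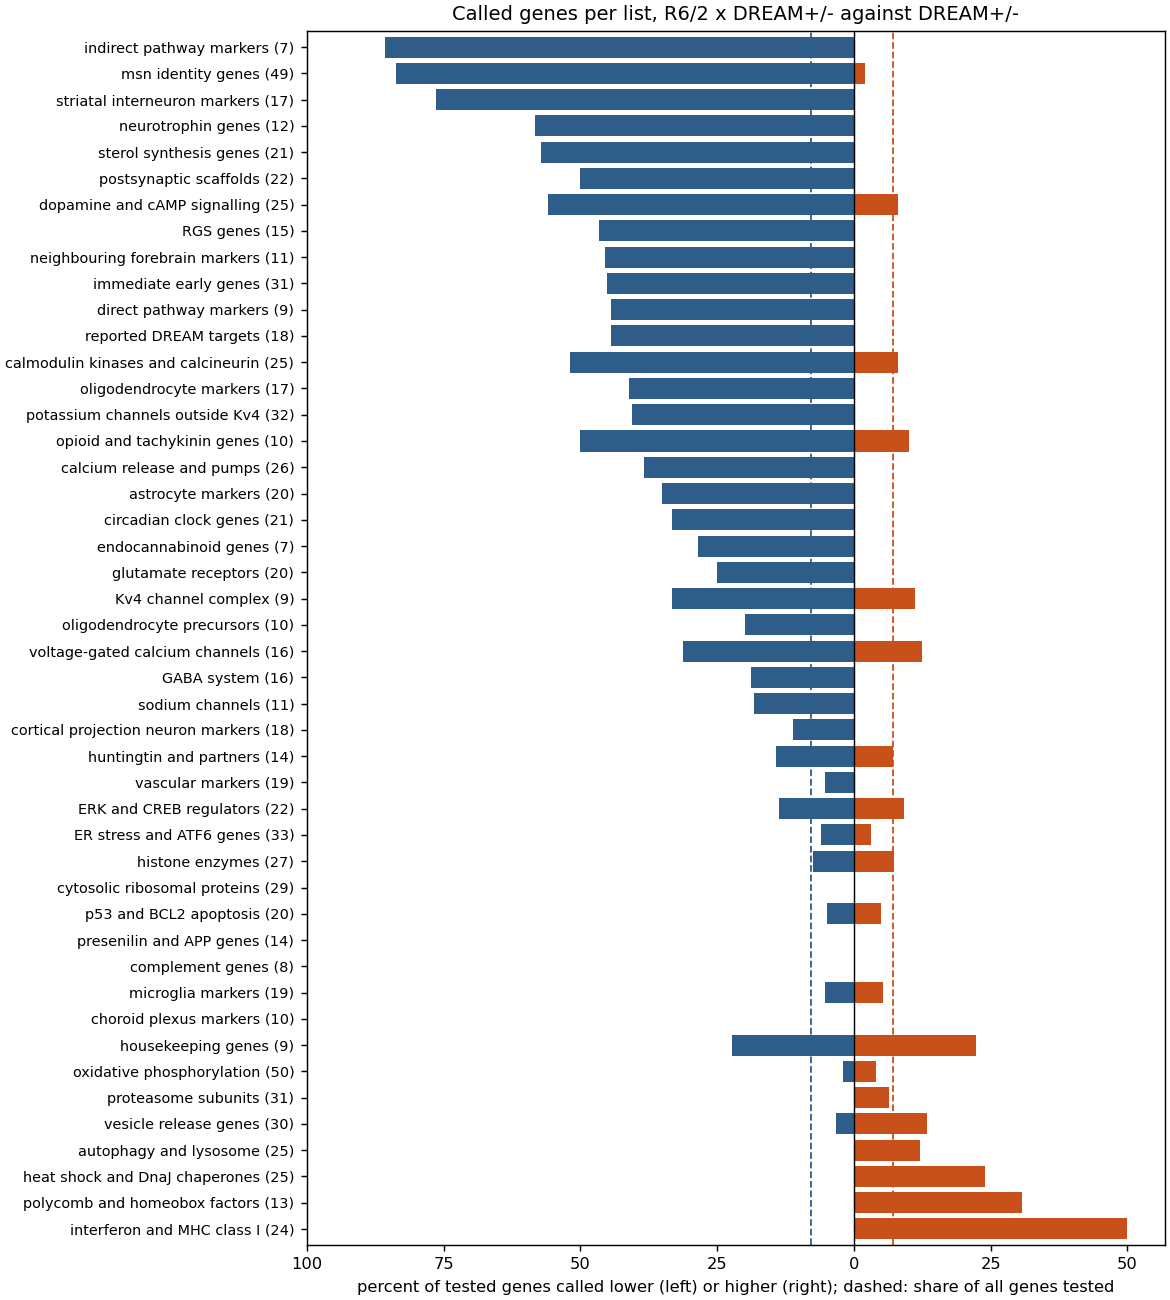
Share of the tested genes called, for each list but the blood and sex-linked markers, lower (blue, to the left) or higher (orange, to the right) in R6/2 x DREAM+/- against DREAM+/-, with the number tested in brackets; dashed lines mark the shares of all genes tested, 7.87% lower and 7.07% higher. Indirect pathway markers, medium spiny neuron genes and interneuron markers stand at the end of falls and interferon genes at the end of rises.

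Of 49 tested medium spiny neuron genes 41 fell and 1 rose, 85.7% called against 14.9% of all genes. Their median difference was -0.59. Among its members are the neuropeptide precursors. Penk, which encodes the enkephalins of indirect pathway neurons, read 12.23, 12.43, 12.56 and 12.13 with R6/2 and 13.16, 13.22, 13.28 and 13.09 without it, and was at 55.5% of the control level (-0.85 ± 0.077, adjusted p = 2.23e-06). Pdyn, the dynorphin precursor of direct pathway neurons, read 7.18, 7.54, 7.68 and 7.56 against 8.02, 8.23, 8.41 and 8.03 and was at 62.3%. Tac1, which encodes substance P and is the other peptide gene of direct pathway neurons, overlapped between the groups, 12.51 to 12.7 with R6/2 and 12.57 to 12.66 without it. Its difference was 0.018 (95% interval -0.095 to 0.13, adjusted p = 0.868). Over the lists of the 2 pathways, 6 of 7 indirect pathway markers fell with a median of -0.66, and 4 of 9 direct pathway markers with a median of -0.033. The indirect pathway falls included Gpr6, an orphan receptor of these neurons (-0.66), Upb1 (-0.72) and Plxdc1 (-0.47, seen on 1 of its 2 probe sets). The direct pathway falls were Pdyn, Drd1, Sfxn1, a mitochondrial serine transporter (-0.46), and Slc35d3, which is needed for D1 receptor trafficking (-0.36, a call lost without 3 of the 8 single arrays, highest adjusted p = 0.0565).

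Both dopamine receptors fell. Drd1 read 10.83, 11.23, 11.24 and 11.2 against 11.51, 11.72, 11.65 and 11.64 (-0.51, adjusted p = 0.000657), with no overlap and the first R6/2 array lowest. Drd2 differed by -0.71 (adjusted p = 0.00837), but its groups overlapped: the third R6/2 array, at 10.51, lay among the controls at 10.34 to 10.63, and the other 3 R6/2 arrays at 9.47 to 9.73. Without the third array the difference was -0.94. Of the 25 tested genes of dopamine and cAMP signalling 14 fell and 2 rose, with 8 falls without the fourth R6/2 x DREAM+/- array and 9 without the second or the third DREAM+/- array. Ppp1r1b read 11.79, 11.94, 12.09 and 11.7 with R6/2 and 12.6, 12.68, 12.71 and 12.54 without it, 59.4% of the control level. Adcy5, the adenylyl cyclase of the striatum, fell by 0.82, and the phosphodiesterases Pde1b by 0.59 and Pde10a, which breaks down cAMP and cGMP in medium spiny neurons, by 0.40. Ppp1ca, the catalytic subunit of protein phosphatase 1 that phosphorylated DARPP-32 inhibits, fell by 0.33. Pde4d went the other way, 9.59, 9.82, 9.77 and 9.73 against 9.27, 9.34, 9.38 and 9.3, a rise of 0.41 (adjusted p = 5.55e-05), and Prkacb, a catalytic subunit of protein kinase A, rose by 0.18 on its brightest probe set, whereas the mean of its probe sets differed by -0.036 and did not pass. The call of Prkacb was also lost without 5 of the 8 single arrays (highest adjusted p = 0.109). On its other 4 probe sets Pde10a differed by -1.12, -1.01, -1.61 and -1, and the mean of all 5 by -1.03, adjusted p = 1.1e-05. On the brightest the call was lost without the fourth R6/2 x DREAM+/- array (-0.31, adjusted p = 0.0515).

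Cnr1, the CB1 cannabinoid receptor on the terminals of medium spiny neurons, read 11.23, 11.42, 11.2 and 10.98 against 12.08, 12.28, 12.14 and 12.09 and was at 52.1% of the DREAM+/- level. Dagla, which makes the endocannabinoid that acts on it, fell by 0.44, and these were 2 of 7 tested endocannabinoid genes to pass. Of the 15 regulators of G protein signalling on the list of RGS genes, which shorten signals of G protein-coupled receptors, all 15 were below 0 and 7 fell (46.7% called). The list does not hold Rgs19, which rose by 0.68. Rgs14 fell by 0.89, Rgs9, the regulator most specific to striatum, by 0.80, Rgs4 by 0.76 and Rgs7bp by 0.41. For Rgs9, 2 of 3 probe sets moved this way, and the mean of all 3 differed by -0.32 (adjusted p = 0.0782). Arpp19 and Arpp21, phosphoproteins regulated by cAMP, fell by 0.89 and 0.69, and Arpp19 had the smallest p of the medium spiny neuron list (12.17, 12.49, 12.23 and 12.24 against 13.25, 13.22, 13.11 and 13.12, adjusted p = 2.14e-07). Of the 10 tested opioid and tachykinin genes 5 fell, among them Tac2, the neurokinin B precursor (-0.54), and Oprk1, the receptor of dynorphin (-0.73), and Oprl1, the nociceptin receptor, rose (0.22, named after its value was seen; not past the test without the first DREAM+/- array, adjusted p = 0.0510). Zfp503, a zinc finger repressor of striatal development, was the 1 member of the medium spiny neuron list that rose (0.34), and it is named for that after its value was seen; without the first R6/2 x DREAM+/- array it did not pass (adjusted p = 0.0508). Foxp2, Ikzf1, Isl1, Meis2, Ebf1, Strip2 and Tac1 did not pass.

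**Figure D3:**
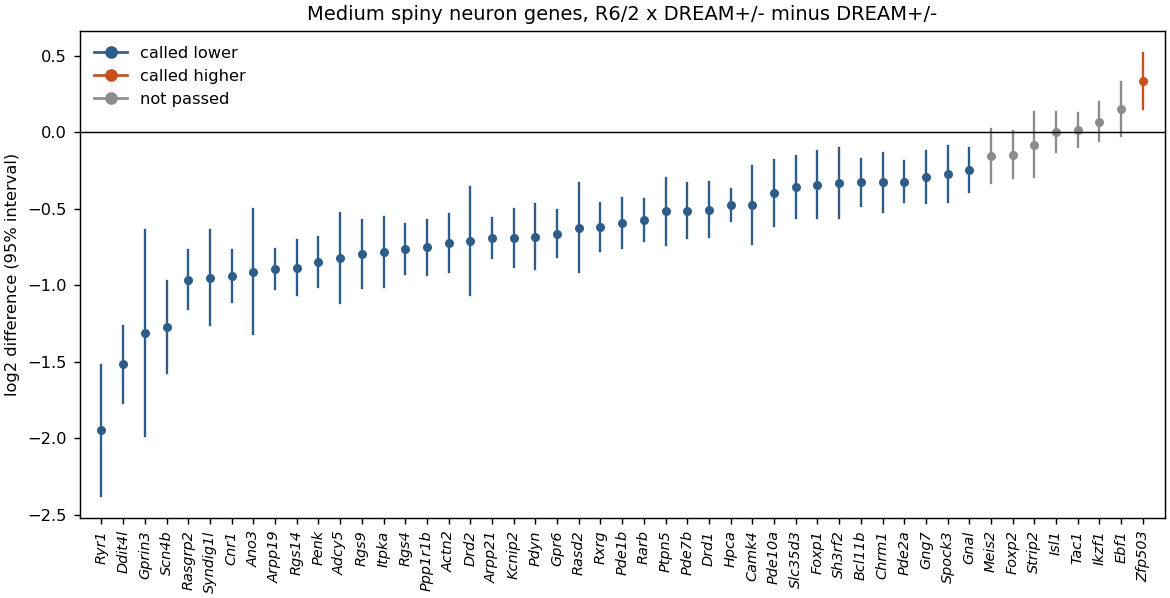
Log2 difference between R6/2 x DREAM+/- and DREAM+/- (vertical axis, points) with its 95% interval (lines) for the 49 tested medium spiny neuron genes, ordered by difference; blue fell, orange rose, grey did not pass. Ryr1, Ddit4l, Gprin3 and Scn4b lie at the low end, and 41 of 49 genes fell.

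Transcripts induced by neuronal activity fell in part. Immediate early genes are switched on within minutes by synaptic calcium entry and the ERK and CREB pathways. Of 31 tested, 14 fell and 0 rose, 45.2% called, with a median of -0.27. Egr2, a zinc finger transcription factor, read 5.83, 6.1, 6.16 and 5.83 with R6/2 and 7.88, 7.52, 7.68 and 7.41 without it. The groups lay more than 1 log2 unit apart, and the level with R6/2 was 32.0% of that without (-1.64 ± 0.20, adjusted p = 2.69e-05). Npas4, an activity-dependent factor that shapes inhibitory synapses, fell by 0.74 (6.68, 6.85, 6.77 and 7.02 against 7.69, 7.43, 7.58 and 7.57). Homer1, a scaffold whose short form is induced by activity, had the tightest groups: 11.66, 11.66, 11.62 and 11.69 against 12.2, 12.28, 12.19 and 12.14 (-0.55, adjusted p = 8.94e-07). All 6 probe sets of Homer1 were lower, by as much as -1.57, and their mean differed by -0.92. Ier5 fell by 0.44 and Egr3 by 0.36. Arc, which acts at activated synapses, read 8.57, 8.68, 8.95 and 8.83 against 9.46, 9.16, 9.23 and 9.22, a difference of -0.51 (adjusted p = 0.0199). Fos, the immediate early gene most often used to mark activity, did not pass: 8.63, 8.94, 8.35 and 9.09 with R6/2 and 9, 8.39, 8.53 and 8.6 without it, with overlapping groups and a difference of 0.12 (95% interval -0.43 to 0.67). The call of Arc was lost without 3 of the 8 single arrays of these groups (highest adjusted p = 0.0705), and the list held 9 falls without the first R6/2 x DREAM+/- array or without the third DREAM+/- array.

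The promoters of 3 of these genes are shown for the elements through which CREB and serum response factor act. Sequences are from RefSeq, build GRCm38.p6, printed 5′ to 3′ on the strand of the gene, and end at or before the transcription start. Capitals mark the CRE core site TGACG on either strand, which reads CGTCA on the other strand and is also contained in the full CRE, TGACGTCA, and in Egr2 also a CArG box, the site of serum response factor. The stretch before Egr2 (chr10:67537718-67537858, plus strand) runs from 151 to 11 bases before the start, that before Homer1 (chr13:93303661-93303756, plus strand) from 96 to 1, and that before Npas4 (chr19:4990096-4990190, minus strand) from 219 to 125.
Egr2: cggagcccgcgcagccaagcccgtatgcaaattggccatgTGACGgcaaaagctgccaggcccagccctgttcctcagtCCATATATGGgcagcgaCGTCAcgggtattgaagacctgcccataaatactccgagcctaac
Homer1: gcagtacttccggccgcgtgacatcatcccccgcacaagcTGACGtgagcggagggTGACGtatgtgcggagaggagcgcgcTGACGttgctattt
Npas4: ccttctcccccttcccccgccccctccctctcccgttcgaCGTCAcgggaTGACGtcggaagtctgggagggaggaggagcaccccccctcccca
The stretches hold 2, 3 and 2 core sites. Egr2 has 5 windows and Homer1 2, and the window with the most matches was the one printed. In the 250 bases before the start, 16 of the 23 immediate early genes with a window (69.6%) held the core site on either strand, and 29.9% of the 10482 tested genes with a window did. Of genes that fell, 27.6% held it, and of genes that rose, 31.7%. A gene was counted if any of its windows held the site. The immediate early genes also held other sites more often than all genes with a window. The E-box CACGTG was in 30.4% against 9.87%, and the interferon element GAAANNGAA in 26.1% against 7.1%. A match describes the letters and not a bound site.

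Among regulators of ERK and CREB signalling 3 of 22 fell and 2 rose, 22.7% called against 14.9% of all genes, with a median of 0.012. Dusp14, a phosphatase of MAP kinases, fell by 0.84, Dusp6, the ERK phosphatase, by 0.33 and Srf, serum response factor itself, by 0.38 on 1 of its 2 probe sets. Creb1 rose by 0.47 and Ep300, a histone acetyltransferase that works with CREB, by 0.23. The calls of Creb1, Ep300 and Dusp6 were lost without 8, 5 and 5 of the 8 single arrays (highest adjusted p = 0.118, 0.0666 and 0.102), and in the mean of the probe sets that of Creb1 (0.12, adjusted p = 0.396) and that of Srf (-0.12, adjusted p = 0.316). Of 12 tested neurotrophin genes 7 fell, and 4 without the first R6/2 x DREAM+/- array. They included the receptor genes Ntrk2 (-0.34), which binds BDNF, and Ntrk3 (-0.34), Nrtn, which encodes neurturin (-0.48), and Sorcs2 (-0.53), a receptor of proneurotrophins. In the mean of their probe sets Ntrk2, read by 8, lost its call (-0.098, adjusted p = 0.261) and Ntrk3 differed by -0.18. Bdnf, brain-derived neurotrophic factor, which reaches the striatum mostly from cortex, read 6.66, 6.73, 6.59 and 6.72 against 6.96, 6.77, 6.89 and 6.87, a fall of 0.20 that passed narrowly (adjusted p = 0.0478) and lost its call in 7 of the 8 fits that left out 1 array.

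Genes of sterol synthesis were lower with R6/2. Neurons and glia of the adult brain make their own cholesterol, and SREBP2, encoded by Srebf2, switches on the enzymes of this pathway through sterol elements. Of 21 tested genes 12 fell and 0 rose, 57.1% called, and 20 of 21 differences were below 0 (median -0.23). Msmo1, a sterol demethylase, read 10.1, 10.26, 10.1 and 10.05 with R6/2 and 10.72, 10.63, 10.61 and 10.62 without it (-0.52, adjusted p = 8.63e-06). Idi1, which isomerises isopentenyl diphosphate, read 8.59, 8.74, 8.68 and 8.74 against 9.2, 9.1, 9.14 and 9.12. Fdft1, the squalene synthase, fell by 0.36 and Sqle, squalene epoxidase, by 0.33. Hmgcs1, which makes the precursor HMG-CoA, fell by 0.24 (adjusted p = 0.00847). It was the 1 gene of the list's 17 with a window that held the sterol element TCACNCCAC (5.88%, against 1.29% of all genes with a window), which is why its promoter is shown. The stretch (chr13:119690174-119690262, plus strand, GRCm38.p6, RefSeq) runs from 177 to 89 bases before the start, with the element in capitals.
Hmgcs1: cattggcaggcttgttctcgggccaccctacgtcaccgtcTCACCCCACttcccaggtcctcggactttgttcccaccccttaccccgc
Srebf2 fell by 0.35, and its call was lost without the first R6/2 x DREAM+/- array (adjusted p = 0.0557). Oligodendrocyte markers, a cell type that makes much of the cholesterol of myelin, moved with this list: 7 of 17 fell, with mean levels of 10.7 to 10.8 with R6/2 and 10.9 without it. Their part in the result was not tested.

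Genes of calcium handling fell at several steps, and no gene of calcium release, exchange and pumping rose among 26 tested (10 fell, median -0.16). Next to Ryr1, the ryanodine receptor Ryr3 fell by 0.52 (9.64, 9.82, 9.91 and 9.44 against 10.2, 10.31, 10.2 and 10.18). Itpka, which phosphorylates inositol trisphosphate, fell by 0.78 and Atp2a2, the pump that refills the endoplasmic reticulum, by 0.31. Of 25 genes of calmodulin, its kinases and calcineurin 13 fell and 2 rose, Camk2d (0.39) and Ppp3cc (0.21), named after their values were seen. For Camk2d the other 6 probe sets differed by -0.02 to 0.16, and the mean of all 7 lost the call (0.095, adjusted p = 0.270). Camk1g read 8.27, 8.25, 8.52 and 8.3 against 9.14, 9.12, 9.15 and 8.99, 58.9% of the control level. Camkk2, the kinase upstream of it, read 10.92, 10.81, 10.49 and 10.9 against 11.55, 11.56, 11.52 and 11.58 (-0.77). Hpca, the calcium sensor hippocalcin, fell by 0.48 and Pcp4, which speeds calcium binding to calmodulin, by 0.46.

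Of 16 voltage-gated calcium channel genes 5 fell and 2 rose, and those with the smallest p were auxiliary subunits: Cacnb2 (-0.52), Cacng3 (-0.58), Cacna2d3 (-0.58) and Cacng2 (-0.39), the last of which, stargazin, carries AMPA receptors. The fifth fall was in Cacnb1 (-0.37) and the rises in Cacng8 (0.32) and Cacna2d1 (0.19), named after their values were seen. Of 11 sodium channel genes Scn4b and Scn2b passed (18.2%, near the 14.9% of all genes). Scn4b read 11.04, 11.62, 11.76 and 11.07 against 12.56, 12.74, 12.81 and 12.47, and Scn2b differed by -0.47 (adjusted p = 0.00618). Of 32 potassium channel genes outside the Kv4 complex 13 fell, 0 rose and 29 were below 0. Kcnab1, an auxiliary subunit, fell by 0.53, the leak channel Kcnk2 by 0.52 and the M-current genes Kcnq3 and Kcnq5 by 0.40 and 0.46, the latter without its call in the mean of its 3 probe sets (-0.27, adjusted p = 0.358). In the Kv4 complex, to which DREAM itself belongs, 3 of 9 fell and 1 rose. Kcnip2, the member of DREAM's family that is the main Kv4 partner in striatum and heart, read 10.32, 10.54, 10.82 and 10.42 against 11.17, 11.32, 11.24 and 11.13 (-0.69, adjusted p = 5.57e-05). Kcnip1 fell by 0.30 and the pore subunit Kcnd2 by 0.21, while Dpp6, an auxiliary subunit, rose by 0.20 on 1 of its 2 probe sets, without a call in their mean (0.046, adjusted p = 0.803). The calls of Kcnip1 and Kcnd2 were lost without 5 and 3 of the 8 single arrays (highest adjusted p = 0.0908 and 0.0748), and without the third R6/2 x DREAM+/- array 8 of the 16 calcium channel genes fell and 0 rose. Cacng8 and Cacna2d1 lost their calls without 5 and 6 of the 8 single arrays (highest adjusted p = 0.149 and 0.127), and in the mean of their probe sets (0.087, adjusted p = 0.473, and 0.091, adjusted p = 0.628). Without the fourth R6/2 x DREAM+/- or the second DREAM+/- array 1 gene of the Kv4 complex fell.

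At the synapse, scaffold and receptor genes were tested as separate lists. Of 22 postsynaptic scaffold genes 11 fell and 0 rose, 50% called, against 5 of 20 glutamate receptor genes (25%) and 3 of 16 genes of the GABA system (18.8%). Neto2, an auxiliary subunit of kainate receptors, read 9.5, 9.79, 9.6 and 9.47 against 10.27, 10.5, 10.41 and 10.27 (-0.77), and its relative Neto1 fell by 0.48. Baiap2, an organiser of dendritic spines, fell by 0.55. Among receptors, the kainate receptor Grik2 fell by 0.71, Grid1 by 0.35, Grm4 by 0.36, Grm5, the metabotropic receptor most abundant in these neurons, by 0.27 and the AMPA receptor Gria3 by 0.21. Gabrd, the GABA-A subunit of tonic inhibition, read 9.44, 9.57, 9.92 and 9.33 against 10.49, 10.45, 10.39 and 10.33 (-0.85, adjusted p = 1.77e-05), while Gabra4 fell by 0.32 on 1 of its 2 probe sets, without a call in their mean (-0.14, adjusted p = 0.363), and the anchor gene Gphn by 0.18. Of 30 genes of vesicle release 4 rose and 1 fell. Syt4 rose by 0.34, Sv2a by 0.36, Syp, synaptophysin, by 0.35 and Unc13b by 0.27, and Unc13a fell by 0.32. In the mean of its 2 probe sets Unc13b did not pass (0.15, adjusted p = 0.0691). The share of this list called, 16.7%, was close to the 14.9% of all genes. Without the third R6/2 x DREAM+/- array 8 genes of vesicle release fell and 3 rose, and 9 of 20 glutamate receptor genes fell; without the second or the third DREAM+/- array 3 of the receptor genes fell. Grm4, Gphn and Unc13a lost their calls without 6, 6 and 7 of the 8 single arrays (highest adjusted p = 0.0878, 0.113 and 0.136). Grm5, Syp and Sv2a lost theirs without 3, 2 and 1 (highest adjusted p = 0.0620, 0.0604 and 0.0536), Syp without the third R6/2 x DREAM+/- or the fourth DREAM+/- array.

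Of 21 tested clock genes 7 fell and 0 rose. Npas2, the partner of BMAL1 in forebrain, fell by 0.73 (8.38, 8.24, 8.61 and 8.12 against 9.04, 9.14, 9.12 and 8.96). Dbp, an output gene of the clock, read 10.73, 10.79, 11.09 and 10.49 against 11.67, 11.65, 11.56 and 11.59 (-0.84). Ciart, a repressor of the clock, fell by 0.73 (adjusted p = 0.000170) and Nr1d1, which encodes REV-ERB alpha, by 0.46. The sources used here do not give the time of day at which tissue was taken. The promoter of Ciart is shown because it holds the E-box CACGTG 3 times, the sequence bound by BMAL1 with CLOCK or NPAS2 (chr3:95882237-95882374, minus strand, GRCm38.p6, RefSeq, 146 to 9 bases before the start, E-boxes in capitals).
Ciart: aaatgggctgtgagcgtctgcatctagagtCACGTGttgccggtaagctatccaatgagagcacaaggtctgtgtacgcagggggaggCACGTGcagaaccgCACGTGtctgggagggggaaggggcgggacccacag
Of the 18 clock genes with a window 5 held an E-box (27.8%), against 9.87% of all genes with a window. The share was not particular to clock genes: immediate early genes held it in 30.4% and sterol synthesis genes in 29.4%. Of genes that fell, 9.23% held it.

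Among 18 tested genes that earlier literature names as targets of DREAM, 8 fell and 0 rose, with a median of -0.23. Besides Egr2 and Pdyn these included Hrk, a BH3-only gene of cell death (7.48, 7.8, 8.15 and 7.63 against 8.66, 8.63, 8.7 and 8.41, -0.83), and Atf6, the endoplasmic reticulum stress sensor that DREAM binds. Atf6 read 8.74, 8.89, 9.15 and 8.62 with R6/2 and 9.28, 9.47, 9.53 and 9.32 without it, 68.3% of the control level (adjusted p = 0.00102), and all 3 of its probe sets were lower. Of the 33 tested genes of the stress response that Atf6 belongs to 2 fell, Atf6 and Mbtps1, the protease that activates it (-0.21), and 1 rose, Edem1 (0.17), 9.09% in all. The call of Edem1 was lost without 6 of the 8 single arrays (highest adjusted p = 0.162), and without the third R6/2 x DREAM+/- array 5 genes of the list fell.

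Of 25 heat shock and DnaJ genes, the chaperones of the cytosol, 6 rose and 0 fell (24% called), and the sizes were small: Cct2 0.21, Hspa8 0.15, Cct5 0.15 and Stip1 0.20. Proteasome, lysosome and respiratory chain lists all had smaller shares called than the 14.9% of all genes. Proteasome genes gave 2 rises of 31 (Psmb7 0.16, Psma3 0.15) and genes of autophagy and lysosome 3 of 25 (Ctss 0.21, Grn 0.26, Ctsl 0.21). Oxidative phosphorylation genes gave 2 rises and 1 fall of 50, the fall in Ppargc1a, the coactivator of mitochondrial biogenesis (-0.22, adjusted p = 0.0332). The 2 rises were Uqcrh (0.17) and Atp5g1 (0.14, with the sign turned in the mean of its probe sets), subunits of complex III and of the ATP synthase. Each of the genes named from these 4 lists lost its call without at least 1 single array, and the count of rising chaperones ran from 1 to 5 over the 8 fits that left out 1 array. Of 9 housekeeping genes Ywhaz (-0.23, with the sign turned in the mean of its probe sets) and Tfrc (-0.22) fell and Pgk1 (0.14) and B2m rose, while Actb differed by 0.028 (adjusted p = 0.915). Tfrc and Pgk1 lost their calls without 6 and 6 of the 8 single arrays. None of 29 ribosomal protein genes, 14 presenilin and APP genes or 8 complement genes passed. The list of p53 and BCL2 genes gave the fall of Hrk and a rise of Bid (0.37). Htt itself read 8.2 to 8.39 with R6/2 and 8.2 to 8.28 without it and did not pass (adjusted p = 0.302). Among its partners Ahi1 rose by 0.30, and Rasd2, the striatal small GTPase Rhes, and Sh3gl3 fell by 0.62 and 0.22, the latter not past the test without the second or the third DREAM+/- array (highest adjusted p = 0.0507).

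Polycomb and homeobox factors held 4 rises among 13 tested and 0 falls (30.8% called). After Sfmbt2 came Onecut2 (8.39, 8, 8.3 and 8.07 against 7.61, 7.66, 7.54 and 7.65, 0.57), a developmental homeobox gene, Eed (0.26, on 1 of its 2 probe sets) and Cbx8 (0.21). Another 13 genes of this list on the array were too dim to be tested. Among 27 histone enzymes 4 were called, 14.8% as against 14.9% of all genes. Hdac1 rose by 0.33 and Kdm5c, an X-linked demethylase, by 0.28, while Kdm3a fell by 0.41 and Kdm4b by 0.29. The calls of Cbx8, Kdm5c and Kdm4b were lost without 5, 7 and 6 of the 8 single arrays (highest adjusted p = 0.149, 0.148 and 0.111), and those of Eed and Kdm5c in the mean of their probe sets (0.036, adjusted p = 0.675, and 0.057, adjusted p = 0.459).

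Of the markers of striatal interneurons 13 of 17 fell and 0 rose, 76.5% called, with a median of -0.39. After Crh came Th, tyrosine hydroxylase of a GABA interneuron class and of dopamine fibres (6.42, 6.62, 6.73 and 6.47 against 7.05, 7.16, 6.98 and 7.03, -0.49), Slc5a7, the choline transporter of cholinergic interneurons (-0.62), and Npy (-0.47). Pvalb, of the fast-spiking class, did not pass (10.19 to 10.61 against 10.55 to 10.8), and it is named after its value was seen. Cortical projection neuron markers gave 2 falls of 18 (11.1%), Rasgrf2 (-0.37) and Lamp5 (-0.17). Markers of neighbouring forebrain regions gave 5 falls of 11: Tnnt1 (-0.63), Lhx2 (-0.32), Zic1 (-0.41), Dlk1 (-0.35) and Calb2 (-0.34). The mean level over this list was 7.24 to 7.44 with R6/2 and 7.50 to 7.64 without it. Whether the dissected block differed between the groups was not tested. Without the first DREAM+/- array 1 of these 11 genes fell, without the second R6/2 x DREAM+/- array 3, and the call of Lamp5 was lost without 6 of the 8 single arrays. Those of Dlk1, Calb2, Lhx2 and Zic1 were lost without 4, 2, 2 and 1 (highest adjusted p = 0.0654, 0.0894, 0.0564 and 0.0616), the first DREAM+/- array among them for each, and Dlk1 did not pass in the mean of its 2 probe sets (-0.13, adjusted p = 0.182).

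Most glial markers did not pass. Of 17 oligodendrocyte markers 7 fell (41.2% called, median -0.14, against 14.9% and 0.0225 over all genes), led by Mal (12.3, 12.34, 12.31 and 12.26 against 12.72, 12.76, 12.8 and 12.73), Ugt8a (-0.48), Aspa (-0.39) and Mobp (-0.34), and 2 of 10 precursor markers, Gpr17 (-0.33) and Vcan (-0.44). Of 20 astrocyte markers 7 fell (35%, median -0.16). Ntsr2 fell by 0.40, Agt by 0.38, Slc4a4 by 0.31 and Ppp1r3c by 0.28. Gfap, the filament gene that rises in reactive astrocytes, did not pass: 8.25, 8.62, 8.51 and 8.45 with R6/2 and 8.63, 8.34, 8.26 and 8.61 without it, a difference with a 95% interval of -0.21 to 0.21. Microglia gave 1 fall, Cd68 (-0.32), and 1 rise, Ctss, among 19 markers (10.5%), and vascular cells 1 fall among 19 (5.26%), Tagln (-0.53).

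Interferon-induced genes and MHC class I were the list with the largest share of rises, 12 of 24 against 7.07% of all genes. All 24 differences were above 0 (median 0.27). Rtp4 read 8.01, 7.75, 7.92 and 8.14 with R6/2 and 7.22, 7.19, 7.26 and 7.4 without it, 161% of the control level, although 1 of its 2 probe sets went the other way. Ifit3, which binds viral RNA complexes, read 8.21, 8.04, 8.09 and 8.24 against 7.62, 7.69, 7.63 and 7.49 (0.54 ± 0.094, adjusted p = 0.000845). Trim30a rose by 0.62 and Ifi27 by 0.45. B2m, the light chain of MHC class I, rose by 0.26 with overlapping groups (10.85 to 11.22 against 10.74 to 10.88, adjusted p = 0.0380), and its call was lost without 7 of the 8 single arrays. The promoter of Ifit3 holds 3 interferon elements, GAAANNGAA, all on the strand opposite to the gene and so printed as their reverse complement in capitals (chr19:34583344-34583465, plus strand, GRCm38.p6, RefSeq, 185 to 64 bases before the start).
Ifit3: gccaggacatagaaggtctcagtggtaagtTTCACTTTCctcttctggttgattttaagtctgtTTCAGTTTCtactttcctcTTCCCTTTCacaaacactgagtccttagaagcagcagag
Of the list's 21 genes with a window 8 held the element (38.1%), against 7.1% of all genes with a window, 7.67% of those that rose and 7.84% of those that fell. Immediate early genes held it in 26.1%.

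**Figure D4:**
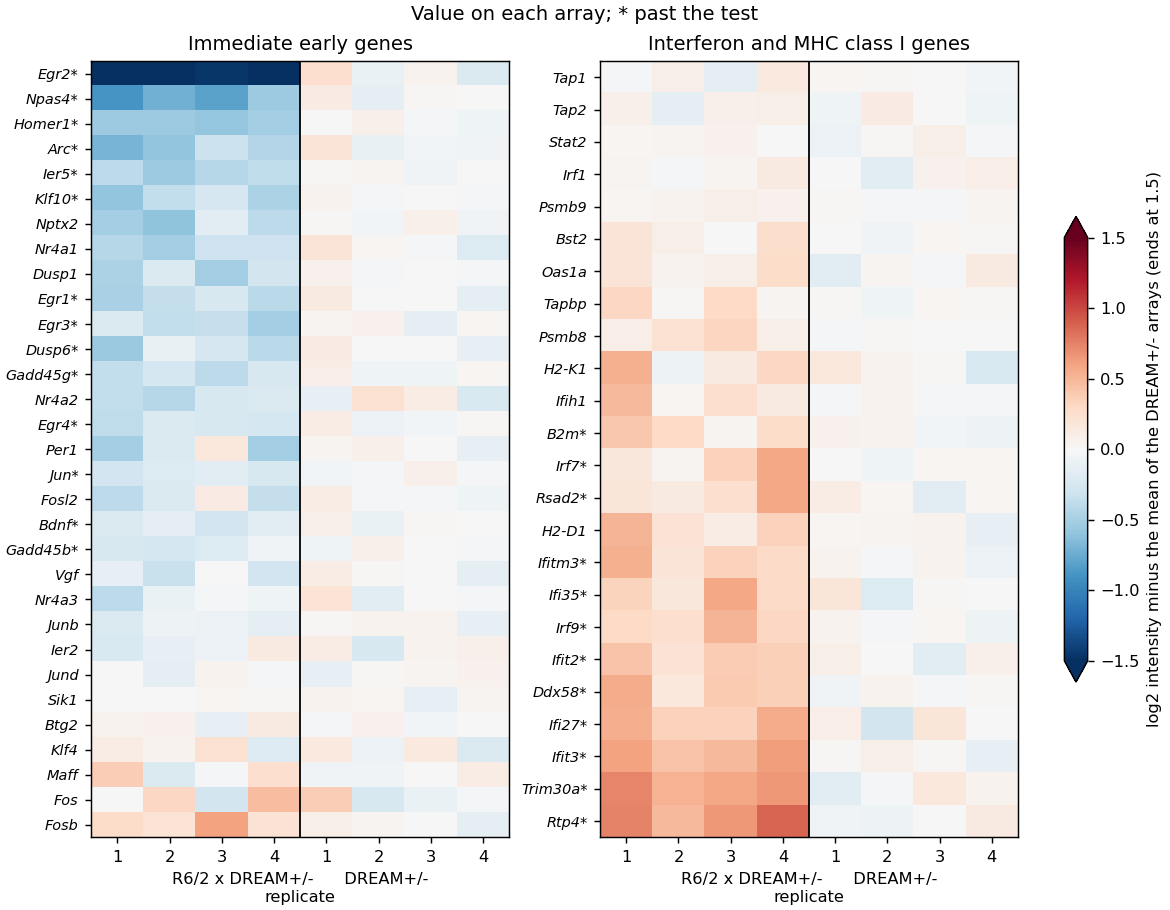
Log2 intensity on each of the 8 arrays minus the mean of the 4 DREAM+/- arrays, for 31 immediate early genes (left) and 24 interferon and MHC class I genes (right); columns are arrays, rows are genes ordered by difference, blue is lower and red higher, and an asterisk marks genes past the test. Egr2 is low on all 4 R6/2 x DREAM+/- arrays, and the interferon genes are weakly raised on most of them.

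The effect of R6/2 was set beside the same effect on the wild-type background, from the other 8 arrays, to ask whether the loss of a DREAM copy altered it. On the wild-type background 3307 of 13011 genes passed (25.4%). Of the 1944 genes called on the DREAM+/- background, 1915 had the same sign there, 852 fell in both and 611 rose in both, and 0 were called in opposite directions. A further 481 passed on the DREAM+/- background alone and 1844 on the wild-type background alone, but passing in 1 and not in the other is no test of a difference. The test of the difference itself, the interaction, called 0 genes (0%) at an adjusted p under 0.05, while 898 had an unadjusted p under 0.05. Alternative processing called up to 3 genes, and a count of 0 does not show that the 2 effects are equal. The median SD of a gene was 0.106 in R6/2 x DREAM+/-, 0.0658 in DREAM+/-, 0.0816 in R6/2 and 0.0976 in wild type. The fit pooled the spread of all genotypes, so that a gene had the same SE in both comparisons. Among called genes, 956 of 1944 had a smaller difference here than on the wild-type background with the same sign, and the median size was 0.29 here and 0.2925 there. These genes were selected for passing here, which favours larger differences on this background. The count and the medians therefore cannot show whether the 2 effects are equal in size.

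**Figure D5:**
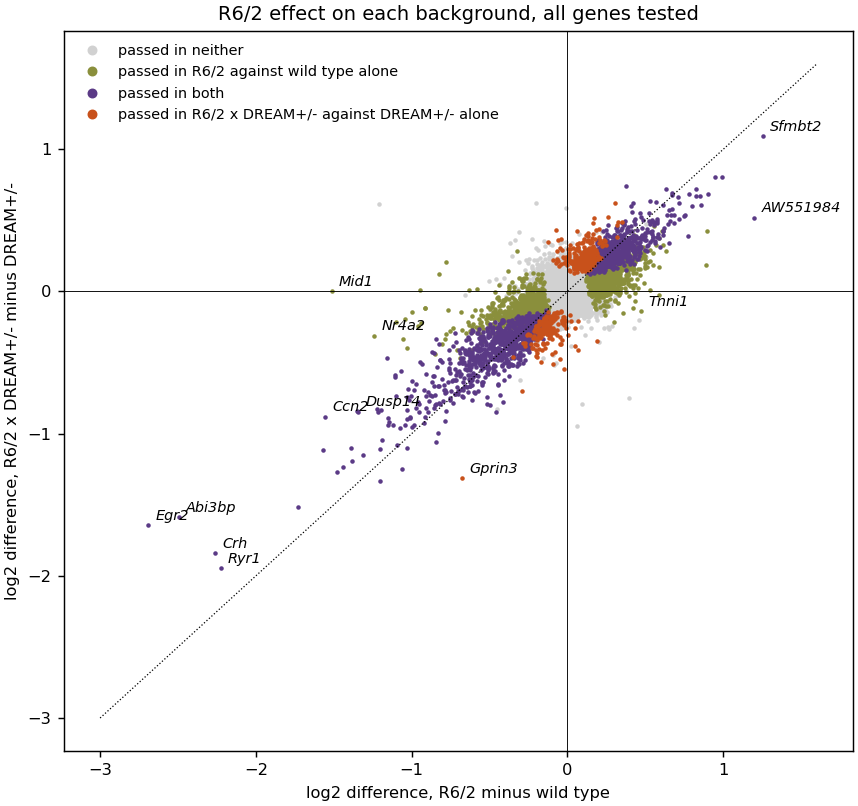
Log2 difference with R6/2 on the wild-type background (horizontal axis) and on the DREAM+/- background (vertical axis) for all 13011 tested genes, coloured by where each passed; the dotted line marks equal differences. The 2 comparisons share no array. Mid1 and Nr4a2 lie low on the wild-type background (-1.51 and -1.24) and at 0.00 and -0.31 on the DREAM+/- background.

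Mid1, an X-linked ubiquitin ligase gene, had the smallest interaction p. It read 7.9, 8.24, 8.23 and 7.66 with R6/2 and 7.55, 7.98, 8.11 and 8.39 without it on the DREAM+/- background, and 5.87, 5.73, 5.7 and 6.13 and 7.3, 7.07, 7.42 and 7.69 on the wild-type background. The difference was 0.00 on the first and -1.51 on the second, an interaction of 1.51 (95% interval 1.01 to 2.01, unadjusted p = 6.17e-06, adjusted p = 0.0578). Nr4a2, an orphan nuclear receptor induced by activity, read 9.24 to 9.45 and 9.44 to 9.9 on the DREAM+/- background and 8.05 to 8.61 and 9.51 to 9.72 on the wild-type background, so that the 4 R6/2 arrays alone were low. Its interaction was 0.93 (adjusted p = 0.0587). Ccn2, a matricellular growth factor gene, fell on both, with differences of -0.88 here and -1.56 there (interaction 0.68, adjusted p = 0.341). AW551984 rose on both, by 0.52 here and 1.20 there. Etv3, a repressor of the ETS family, rose here (8.19 to 8.37 against 7.88 to 8.06) and had a difference of -0.13 there, which did not pass. In the mean of its 4 probe sets Etv3 did not pass here (0.11, adjusted p = 0.133). Tnni1, Prss23 and Zfand4, which passed on the wild-type background alone, had differences of -0.14, -0.24 and 0.025 here and 0.47, -0.96 and 0.45 there.

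Part of the immediate early genes fell on each background. On the wild-type background 25 of 31 fell with a median of -0.64, against 14 and -0.27 here. Egr2 differed by -1.64 here and -2.69 there (interaction 1.05, 95% interval 0.47 to 1.63, adjusted p = 0.496). Fos differed by 0.12 here and -0.83 there, and Arc by -0.51 and -0.94. None of the 31 interactions passed, so that the gap between the list's medians is a description. Markers of cortical projection neurons, in which many of these genes are also induced, were also lower by more there: their median was -0.030 here and -0.30 there, with 2 and 9 of 18 falls. Their part in the gap was not tested. The medium spiny neuron list had medians of -0.59 and -0.64, sterol synthesis -0.23 and -0.20, interneuron markers -0.39 and -0.36, and interferon genes 0.27 and 0.31. Genes reported as targets of DREAM had medians of -0.23 here and -0.59 there, with 8 and 13 of 18 falling. No interaction passed among them, and some, such as Egr2 and Bdnf, are also on the list of immediate early genes. For Ppp1r1b (-0.75 and -0.76), Pdyn (-0.68 and -0.67) and Penk (-0.85 and -0.90) the 2 effects were close, and the 95% intervals of their interactions were -0.25 to 0.26, -0.31 to 0.29 and -0.18 to 0.28.

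Of genes called here, those with the smallest difference on the wild-type background were Gfpt1 (0.18 here), the entry enzyme of the hexosamine pathway, Mdc1 (0.30), a DNA damage checkpoint gene, the centrin gene Cetn4 (-0.30), the transcription factor Ets1 (0.22), Klhl28 (0.24) and the HSP40 gene Dnajb1 (0.22). Their differences on the wild-type background lay between -0.0050 and 0.010. Adjusted p here ran from 0.00514 (Mdc1) to 0.0469 (Dnajb1), and no interaction of these passed. For Klhl28, 1 of 4 probe sets had the reported sign, and their mean differed by -0.055. Of these 6, Mdc1 alone kept its call without each single array. Th, a member of the interneuron list, fell by 0.49 here and differed by -0.17 there (adjusted p = 0.0897, interaction adjusted p = 0.581).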

How the data were processed

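The authors deposited 1 log2 intensity per probe set and array, which the submitters' processing notes tie to RMA and the affy package (versions not given in the sources used here). The 16 columns, 3.34 to 14.71, were used as deposited. RMA corrects background, normalizes between arrays and summarises probes, so only differences within a probe set were read. Of 45101 probe sets, 34945 have 1 gene symbol in the platform annotation, 932 several, 9160 none, and 64 are controls. The brightest probe set of each of 18193 genes was kept, and 13011 genes with a mean over all arrays above the 40th percentile (5.944) were tested. Of these symbols' records, 99.42% matched RefSeq by Entrez number.

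limma 3.58.1 (R 4.3.3; lmFit, eBayes) was fitted to all 16 arrays with 1 mean per genotype, and p was adjusted over the 13011 genes by Benjamini-Hochberg and called under 0.05. SE, intervals (95%) and all adjusted p come from this fit, the difference between backgrounds from its interaction contrast. The pipeline was tested on simulated data. The number of arrays, 4 a group, limits the precision. The labels call the 4 arrays biological replicates but name no animals, so p-values measure the spread between these samples. Members, comparisons and the 48 lists (1011 names, 913 on the array, 858 tested) were chosen with earlier results of these data known, so lists got counts and medians and no test. Named genes are the 15 largest changes each way without overlap, from each list up to 4 of smallest p (all called members where at most 5 were called), a fixed set, and the genes differing most, and least, between backgrounds; others are marked in the text. Motifs were searched on both strands in the 250 bases before the start in RefSeq windows (GRCm38.p6), found for 10482 of the tested genes. A gene counted if any of its windows held the motif. Alternatives covered the filter, probe set choice, normalization, moderation, array weights, a replicate block, covariates and leaving out each array.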

Additional observations from a re-analysis of the deposited data

Results flagged for a closer look

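In 35 of 426 groups, over the 213 genes named and both genotypes, 1 of the 4 arrays lay farther from the other 3 than Dixon's 95% critical value for 4 samples allows, and chance gives this in about 1 group of 20. The values are log2 intensities, each beside the other 3 arrays of its group. On the first DREAM+/- array Calb2 read 8.14 against 7.89 to 7.91, Edem1 read 8.33 against 8.46 to 8.47, Eed read 8.74 against 8.61 to 8.62, Gpr6 read 11.39 against 11.27 to 11.29, Gria3 read 11.24 against 11.14 to 11.15, Prkacb read 12.26 against 12.4 to 12.41 and Psma3 read 11.93 against 11.79 to 11.81. On the second DREAM+/- array Rgs7bp read 12.19 against 12.1 to 12.11 and Ryr3 read 10.31 against 10.18 to 10.2. On the third DREAM+/- array Bhlhb9 read 11.16 against 11.21 to 11.22, Egr3 read 11.76 against 11.92 to 11.95, Htt read 8.28 against 8.2 to 8.21, Ntsr2 read 11.57 against 11.49 to 11.5 and Pde10a read 12.59 against 12.82 to 12.84. On the fourth DREAM+/- array Arpp21 read 13.53 against 13.6, Drd2 read 10.34 against 10.59 to 10.63, Etv3 read 8.06 against 7.88 to 7.91, Klhl28 read 9.14 against 8.95 to 8.98, Neto1 read 10.9 against 11.02 to 11.04, Ntrk2 read 11.45 against 11.54, Rgs19 read 8.42 against 8.35, Strip2 read 10.36 against 10.16 to 10.17 and Ywhaz read 12.98 against 13.07 to 13.08. On the first R6/2 x DREAM+/- array Drd1 read 10.83 against 11.2 to 11.24. On the second R6/2 x DREAM+/- array Nr1d1 read 8.13 against 7.94 to 7.97. On the third R6/2 x DREAM+/- array Baiap2 read 10.75 against 10.57 to 10.6, Cacnb1 read 9.62 against 9.35 to 9.39, Ccn2 read 8.61 against 8.22 to 8.28, Eif2s3y read 6.23 against 7.34 to 7.42, Gprin3 read 5.39 against 7.29 to 7.41, Grm4 read 8.29 against 7.71 to 7.78, Itpka read 9.95 against 9.48 to 9.55, Sfmbt2 read 7.48 against 6.86 to 6.93 and Syp read 11.5 against 11.12 to 11.14. On the fourth R6/2 x DREAM+/- array Gpr6 read 10.38 against 10.7 to 10.76.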

How the results depend on the processing

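The comparison was repeated under 20 alternatives, of which the fit on the 8 arrays without the third R6/2 x DREAM+/- array was chosen after seeing the data. Against 1944 called genes, 920 higher and 1024 lower, the 8 arrays alone gave 1728 calls, array weights 2685 and the Y-linked covariate 1433. Genes higher numbered 505 with the Y-linked covariate, and genes lower 1631 with the 8 arrays less the third R6/2 x DREAM+/- array. Shifting arrays to a common median gave 748 higher and 1002 lower. Over the 8 fits that left out 1 array, called genes ran from 1304 to 2306, genes higher from 540 to 877 and genes lower from 764 to 1429, the lowest count of genes higher without the second DREAM+/- array. The interaction, with 0 calls, had 3 with the filter at the 60th percentile, 1 after quantile normalization, 3 after the common median shift, 1 with the cortical marker covariate and 0 to 2 without 1 array. Kcnip3 lay at the threshold with only the 8 arrays (-0.21, adjusted p = 0.05) and passed with these less the third R6/2 x DREAM+/- array (-0.24, adjusted p = 0.022).

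With the replicate block 1946 genes passed, 1804 of them shared with the fit without it. Deviations of same-numbered arrays correlated by 0.17, 0.29, 0.049 and 0.10, and 3 of 4 numbers correlated best with themselves, a hint of pairing from the data. The labels do not say that a number marks a shared litter or batch, and 1 pair lay under 0.1, so the fit without the block was kept. The block ended the calls of 140 genes, 9 of them named in the text.

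Of 190 called genes named in the text, 125 passed under every alternative that tested them and 65 lost the threshold under at least 1. The sign turned for 4, Klhl28 (-0.055), Prkacb (-0.036), Atp5g1 (-0.079) and Ywhaz (0.11), each in the mean of all probe sets of a gene. With 4 arrays a group, the number of arrays limits the precision.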

Other observations

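Genes of the X chromosome, examined after their values were seen, were higher with R6/2 more often than genes as a whole: 73 of 407 tested (17.9%) against 7.07% of all genes, with 16 lower. With the Y-linked covariate 44 X-linked genes were higher (10.8%) against 3.88% of all genes, and without 1 array each 47 to 71. The X-linked family of Armcx, Gprasp and Bhlhb9 genes, which encode armadillo repeat and receptor sorting proteins, had 7 of 9 genes higher with a median of 0.29, and 5 of 9 with a median of 0.18 on the wild-type background. Of 4 X-linked genes known to escape inactivation 2 were higher. The part of the mix of sexes in these values was not tested beyond the covariate.

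The protocadherin beta cluster, whose genes encode cell adhesion proteins of neurons, had 5 of 14 tested genes higher and 0 lower, with a median of 0.25, and 7 higher and 1 lower on the wild-type background (0.16). Among 287 tested zinc finger genes with Zfp symbols 34 rose and 3 fell, with a median of 0.053 on both backgrounds. These counts are to be read against the 7.07% of all genes that rose and the 7.87% that fell. Of 468 genes on chromosome 12, 12.6% were lower, against 7.87% of all genes. It had the largest such share of the chromosomes, with chromosomes 13 and 14 at 10.1% each. The groups in this paragraph were picked after their values were seen.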
